A study of Mus musculus with 6 samples.

Results

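The genes described here encode the eukaryotic translation initiation factors eIF1, eIF1A, eIF2, eIF2B, eIF3, eIF5, eIF5A, eIF5B and eIF6, the protein kinases that act on eIF2, and 4 Argonaute proteins that the count tables list under their older Eif2c symbols. They were chosen by symbol alone: every row that starts with Eif1, Eif2, Eif3, Eif5 or Eif6, without the eIF4 genes, without the Y-linked eIF2 gamma gene and without names marked as pseudogenes. The rule found 41 of 23229 annotated genes. No measured value entered it, but the members were chosen with earlier results of these data known. Members were matched to 41 genes of the GENCODE vM21 annotation, whose assembly is build mm10.

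Sperm nuclei were compared with whole sperm, both from individual 4-month-old mice of the transgenic C57BL/6 line HP3.1. Neither the transgene nor the cells that express it are stated by the labels, and all preparations carry it. Sperm came from the cauda epididymis and vas deferens. Sonication parted heads from tails, and nuclei were then purified by ultracentrifugation with sucrose, caesium chloride and Triton X-100, while whole-sperm RNA was taken without these steps after a visual check for other cells. The 6 labelled samples are 2 runs each of 3 preparations, named nuclei 1, nuclei 2 and whole sperm, and each preparation has 1 column in the tables. Nothing says whether the 2 nuclei preparations came from different animals, and whole sperm has no replicate. The p-values thus measure the spread between these preparations, which may be technical. For edgeR p-values and SEs this spread was pooled over all rows, not taken gene by gene.

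Initiation begins when eIF2, loaded with GTP and the initiator tRNA, joins the small ribosomal subunit together with eIF1, eIF1A, eIF3 and eIF5. eIF1 and eIF1A keep the complex open while it scans for a start codon, eIF5 makes eIF2 hydrolyse its GTP, and eIF5B helps the large subunit to join. Mature sperm carry condensed chromatin and are held to neither transcribe nor translate their nuclear genome to any large extent, and much of their mRNA is left from earlier germ cell stages.

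The depth, summed over genes and assembled regions, was 5487306 counts for nuclei 1, 6648848 for nuclei 2 and 8316345 for whole sperm. Prm2, the protamine gene that marks late spermatids and sperm, was at 592 and 431 CPM in nuclei, against 319 CPM in whole sperm (CPM, counts scaled to the library's total with TMM factors). The 6 spermatid and sperm markers, Prm2 among them, summed to 4387 and 3740 CPM in nuclei, against 2208 CPM in whole sperm; both nuclei libraries lay above whole sperm for 5 of them and below it for Smcp, at 431 and 413 CPM in nuclei, against 606 CPM in whole sperm. The 5 general epithelial markers listed for this comparison all lay lower in both nuclei libraries, with summed levels of 67.2 and 96.4 CPM in nuclei, against 344 CPM in whole sperm, and none of them was at 0 in any library. The 6 epididymal markers summed to 760 and 887 CPM in nuclei, against 7861 CPM in whole sperm; Lcn5 and Defb15 were at 0 in every library, and Crisp1, a secreted epididymal protein gene, fell in nuclei (edgeR adjusted p = 0.0241). The 5 leukocyte markers summed to 3.63 and 7.20 CPM in nuclei, against 23.8 CPM in whole sperm, with Csf1r at 0 in both nuclei libraries and Ptprc and Cd3e at 0 in nuclei 1. Of 4 Sertoli and Leydig cell markers, Amh and Star were at 0 in every library and Cyp17a1 in nuclei 2 and whole sperm, and the list summed to 27.7 and 3.60 CPM in nuclei, against 1.27 CPM in whole sperm, nearly all of it Sox9. Initiation factors are active in every cell type, so the part of epithelial or other non-sperm RNA in each difference between nuclei and whole sperm below was not tested. In such bulk samples, fewer cells of a type and less RNA per cell cannot be told apart.

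No initiation factor gene differed between nuclei and whole sperm by the edgeR quasi-likelihood test at an adjusted p under 0.05 (Benjamini-Hochberg over all 16720 rows tested). In all, 39 members had enough counts to be tested. Of all rows, 0.161% passed this threshold, 0.0658% higher and 0.0957% lower in nuclei. With p under 0.05 before adjustment there were 1 member higher and 2 lower, and of all rows 3.77% higher and 2.07% lower. DESeq2 called 0 of the 31 members to which it gave an adjusted p (of all 39, 1 was higher and 2 lower with p under 0.05 before adjustment). It gave none to the other 8, among them Eif2ak1 with an unadjusted p = 0.00661. Further, limma on the authors' RPKM values called 0 of 41 (0 higher and 4 lower before adjustment). Beside these, DESeq2 called 1.53% of the 8940 rows with an adjusted p higher and 0.403% lower (8.68% and 2.11% before adjustment), and limma called 0% in either direction (1.93% and 14.2% before adjustment).

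The fitted log2 fold change, nuclei over whole sperm, was below 0 for 27 of 39 tested members, against 50.8% of the 14397 annotated genes tested, and its median was -0.26, against -0.045 for all annotated genes. Of all rows, assembled regions included, 54.4% lay above 0 and 45.6% below. Both nuclei libraries lay below whole sperm for 19 members (48.7%), where 41.2% of annotated genes did so, and both lay above it for 8 members (20.5%), where 26.1% of genes did (of all rows, 36.8% below and 26.7% above). With spike-in scaling, described at the end, 4 members lay above 0 and 35 below. The median of all rows was then also below 0, at -1.16, so most rows shared this side. The members took 0.127% of counts in nuclei 1 (exact 95% Clopper-Pearson interval 0.124 to 0.130), 0.102% in nuclei 2 (0.0995 to 0.104) and 0.163% in whole sperm (0.160 to 0.166). Such intervals hold for counting error alone, as reads copied by PCR cannot be recognised here.

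**Figure D1:**
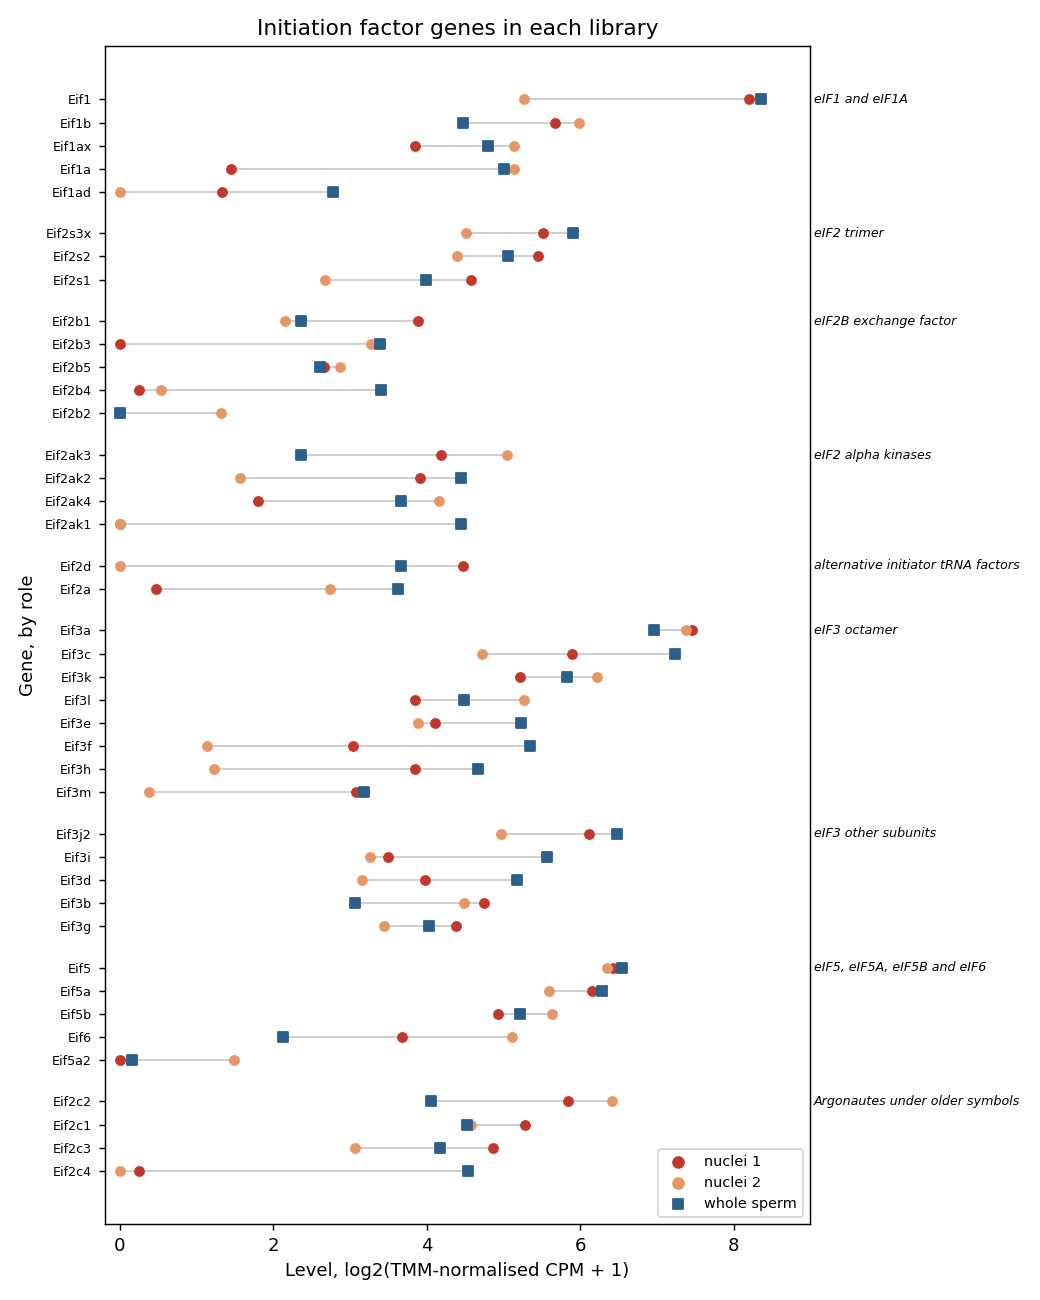
Level of each of the 41 genes in nuclei 1, nuclei 2 (circles) and whole sperm (squares), as log2 of the TMM-normalised CPM plus 1, sorted by role and mean level; grey lines join the lowest and highest library. Eif1 and Eif3a have the highest mean levels, whole sperm lies outside the range of the nuclei libraries on the upper side for most eIF3 genes, and Eif2ak1 and Eif2c4 sit near 0 in nuclei.

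Among the factors that bind the small subunit first, Eif1, which guards the choice of start codon, was the most abundant member per length in nuclei 1 and whole sperm; in nuclei 2 that was Eif3k. Its level in the authors' RPKM table (reads scaled to gene length and to the library's total) was 77.9 and 12.5 RPKM in nuclei, against 143 RPKM in whole sperm, above 99.4%, 91.6% and 99.6% of the 17430 genes with a value in any library. In counts, Eif1 stood at 294 and 37.6 CPM in nuclei, against 326 CPM in whole sperm (log2 -0.98 ± 0.72 SE, edgeR adjusted p = 0.909). Nuclei 1 was close to whole sperm and nuclei 2 far below it, so the nuclei libraries differed from each other by more than nuclei 1 did from whole sperm. Set against whole sperm alone, nuclei 1 gave a log2 difference of -0.15 and nuclei 2 one of -3.10, each on log2(CPM + 0.5). The count of Eif1 is uncertain, because 19.2% of the 50-base stretches of its annotated transcripts also occur in transcripts of other genes.

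Eif1b, a close paralog of Eif1, lay on the other side. It was at 50.2 and 62.2 CPM in nuclei, against 21.1 CPM in whole sperm (log2 1.41 ± 1.13 SE, edgeR adjusted p = 0.909), and at 22.8 and 19.1 RPKM in nuclei, against 11.7 RPKM in whole sperm. The nuclei libraries agreed closely and both lay above whole sperm, but the test, which pooled the spread over all rows, did not pass. With spike-in scaling the log2 fold change was -0.026. Whole sperm thus held many times more Eif1 than Eif1b per length, while in nuclei 2 Eif1b was above Eif1.

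An assembled region that the authors list separately lies beside Eif1b. TCONS_00041359 covers chr9:120490180-120492237 in build mm10, 2058 bases that end at position -369 relative to the RefSeq start of Eif1b and overlap the first exon of another annotated form of the gene by 6 bases. On the opposite strand, the annotation holds the antisense gene D830035M03Rik there, of which 1706 of 2016 bases, intron included, fall inside the region. Its exons lie only at positions -2074 to -1476 and -500 to -59 relative to the RefSeq start of Eif1b. Since no source used here gives the strand setting of the counting, reads of the region cannot be assigned to either strand. The same limit holds for part of Eif1b, as 143 of its 1125 exon bases overlap exons of D830035M03Rik. The region had 1087 and 909 counts in nuclei, against 563 in whole sperm, more than Eif1b itself with 263 and 415 counts in nuclei, against 183 in whole sperm. Its level was 207 and 136 CPM in nuclei, against 65.0 CPM in whole sperm (log2 1.40 ± 0.82 SE, edgeR adjusted p = 0.909). Region and gene therefore both lay above whole sperm in both nuclei libraries with nearly the same log2 difference, and neither passed the test. The sequence around the Eif1b start, taken from the RefSeq start table for GRCm38.p6 (chr9:120492356-120492655, plus strand), is shown because it follows the region and holds the start of the gene. Its lower-case letters are the 250 bases before the annotated start and its capitals the 50 bases from it on. It holds 78.3% G and C, against a median of 52.7% over the 32851 windows of this table, and 50 CG pairs, against a median of 7.
Eif1b: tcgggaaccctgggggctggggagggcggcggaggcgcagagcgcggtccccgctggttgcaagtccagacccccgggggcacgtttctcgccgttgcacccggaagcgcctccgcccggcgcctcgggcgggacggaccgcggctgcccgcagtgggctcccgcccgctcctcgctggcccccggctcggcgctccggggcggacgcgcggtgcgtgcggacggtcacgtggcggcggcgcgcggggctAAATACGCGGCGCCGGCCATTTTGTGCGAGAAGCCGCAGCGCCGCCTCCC

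**Figure D2:**
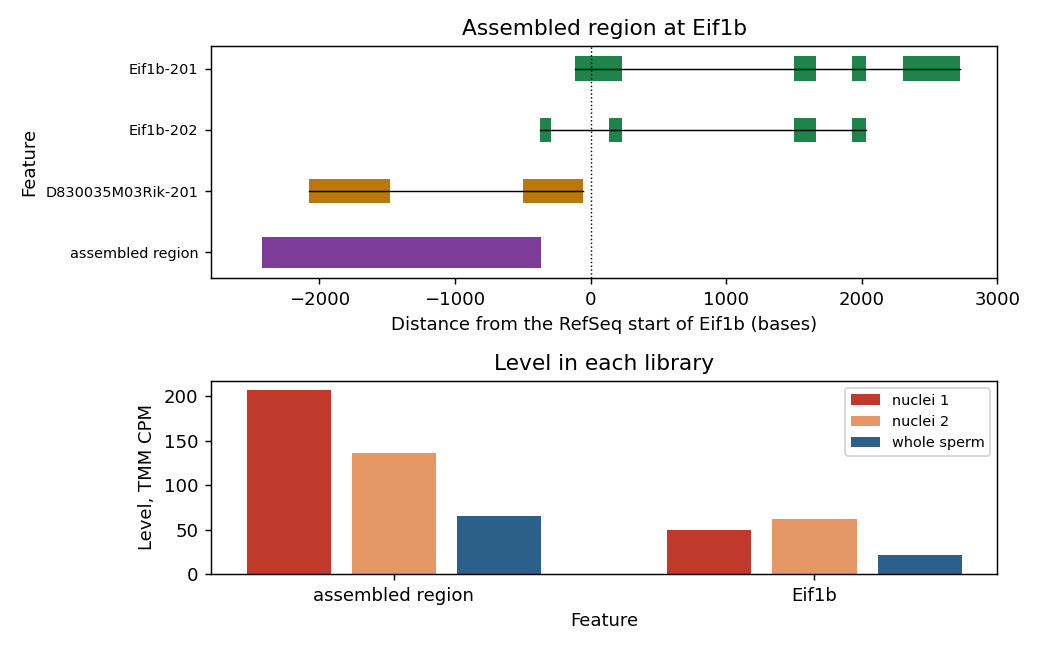
Upper panel: the assembled region (purple), both annotated Eif1b transcripts (green exons) and the antisense gene D830035M03Rik (brown exons), by distance in bases from the RefSeq start of Eif1b. Lower panel: level in TMM-normalised CPM of the region and of Eif1b in nuclei 1, nuclei 2 and whole sperm, 1 bar per library; for both features whole sperm has the lowest bar, at 65.0 and 21.1 CPM.

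The eIF1A genes were uneven between the nuclei libraries. Eif1ax, the X-linked form, was at 13.4 and 34.2 CPM in nuclei, against 26.9 CPM in whole sperm, so whole sperm lay between them. Eif1a, an autosomal gene of the same family, was at 1.72 and 34.2 CPM in nuclei, against 31.3 CPM in whole sperm. For Eif1a, nuclei 2 matched whole sperm and nuclei 1 did not. The related Eif1ad had 8 and 0 counts in nuclei, against 51 in whole sperm. A second assembled region, TCONS_00044513, lies inside an exon of Eif1ax (chrX:159387844-159388117) and had 131 and 0 counts in nuclei, against 21 in whole sperm, so its only nuclear counts came from nuclei 1.

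The eIF2 trimer carries the initiator tRNA, with an alpha subunit that is phosphorylated under stress, a beta subunit and a GTP-binding gamma subunit. Eif2s3x, the X-linked gamma gene, had the highest mean of the trimer at 44.7 and 21.7 CPM in nuclei, against 59.1 CPM in whole sperm (log2 -0.83 ± 1.07 SE, edgeR adjusted p = 0.917). Its count is uncertain, as 34.6% of its 50-base stretches occur in the processed pseudogene Gm2223. Eif2s2, the beta gene, stood at 42.6 and 20.1 CPM in nuclei, against 32.5 CPM in whole sperm, and Eif2s1, the alpha gene, at 22.9 and 5.4 CPM in nuclei, against 14.9 CPM in whole sperm. For both of these, whole sperm lay between the nuclei libraries. The count of Eif2s2 is also uncertain, as 10.2% of its 50-base stretches occur in transcripts of other genes. Per length, Eif2s1 was the lowest of the trimer in every library, at 1.88 and 0.546 RPKM in nuclei, against 2.74 RPKM in whole sperm, while Eif2s3x reached 6.07 and 2.14 RPKM in nuclei, against 11.1 RPKM in whole sperm.

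eIF2B, the 5-subunit exchange factor that reloads eIF2 with GTP, was scarce. Its 5 genes summed to 19.3 and 20.4 CPM in nuclei, against 28.3 CPM in whole sperm. Eif2b1, the alpha subunit gene and the member with the highest mean, was at 13.7 and 3.45 CPM in nuclei, against 4.16 CPM in whole sperm (log2 1.04 ± 3.82 SE, edgeR adjusted p = 1.00, and -0.38 with spike-in scaling). Eif2b5, the catalytic epsilon gene, was at 5.34 and 6.30 CPM in nuclei, against 5.08 CPM in whole sperm, but at 0.502 and 1.28 RPKM in nuclei, against 0.724 RPKM in whole sperm, so the nuclei libraries were closer in CPM than in RPKM. Eif2b4 had 1 and 3 counts in nuclei, against 83 in whole sperm, and Eif2b3 had 0 and 58 counts in nuclei, against 82 in whole sperm. Eif2b2 had 0 and 10 counts in nuclei, against 0 in whole sperm, too few for the test. The subunits of this complex were therefore not counted in equal measure in any library.

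The 4 eIF2 alpha kinases, which slow initiation in response to haem shortage, double-stranded RNA, unfolded proteins in the endoplasmic reticulum or lack of amino acids, lay on different sides of whole sperm. Eif2ak1, the haem-regulated kinase gene (chr5:143817788-143904251), had 0 counts in both nuclei libraries and 181 counts, or 20.9 CPM, in whole sperm. Against a floor of 3 counts per nuclei library it was at least 40.9-fold lower in nuclei (edgeR adjusted p = 0.718, unadjusted p = 0.0311). In the authors' RPKM table it was listed at 0 and 0.134 RPKM in nuclei, against 4.53 RPKM in whole sperm, so the table gives nuclei 2 a small value where the count is 0. Exons of other genes on the opposite strand overlap 659 of its exon bases. Eif2ak3, the kinase of the endoplasmic reticulum known as PERK, lay above whole sperm in both nuclei libraries, at 17.2 and 31.9 CPM in nuclei, against 4.16 CPM in whole sperm (log2 2.56 ± 2.14 SE, edgeR adjusted p = 0.909). Of the Eif2ak3 exon bases, 485 overlap exons of Gm43292 on the opposite strand. Eif2ak2, the kinase known as PKR, was at 14.1 and 1.95 CPM in nuclei, against 20.8 CPM in whole sperm. Eif2ak4, the amino acid sensor GCN2, was at 2.48 and 16.9 CPM in nuclei, against 11.7 CPM in whole sperm.

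Of the factors that can deliver initiator tRNA without eIF2, Eif2d was counted in nuclei 1 and had no count in nuclei 2. It had 111 and 0 counts in nuclei, against 101 in whole sperm, or 21.2 and 0 CPM in nuclei, against 11.7 CPM in whole sperm (log2 -0.14 ± 2.65 SE, edgeR adjusted p = 1.00), with a floor of 0.450 CPM for 3 counts in nuclei 2. Set against whole sperm alone, nuclei 1 gave 0.83 and nuclei 2 -4.60 on log2(CPM + 0.5). Eif2a was at 0.382 and 5.70 CPM in nuclei, against 11.3 CPM in whole sperm.

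eIF3 is the many-subunit scaffold that holds the small subunit, the other factors and the mRNA together, and its genes made up much of the members' counts. The octamer subunits summed to 327 and 318 CPM in nuclei, against 460 CPM in whole sperm, and the other eIF3 genes to 139 and 78.3 CPM in nuclei, against 193 CPM in whole sperm. Of 13 eIF3 genes tested, 10 had a fitted log2 fold change below 0, with both nuclei libraries below whole sperm for 8 of them, and 2 genes, Eif3a and Eif3b, had both nuclei libraries above it. Of all annotated genes tested, 50.8% lay below 0, 41.2% had both nuclei libraries below whole sperm and 26.1% both above. No eIF3 gene passed the test over all rows.

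Eif3c, a core octamer subunit gene (chr7:126546455-126566411), had the smallest unadjusted p of the eIF3 genes. It was at 58.4 and 25.5 CPM in nuclei, against 150 CPM in whole sperm (log2 -1.84 ± 0.84 SE, edgeR unadjusted p = 0.0291, adjusted p = 0.699). Per length it stood at 7.49 and 3.87 RPKM in nuclei, against 35.7 RPKM in whole sperm. Both nuclei libraries were thus well below whole sperm in either unit, with 7.25% of its 50-base stretches shared with a processed pseudogene. Eif3f, Eif3h and Eif3m, further octamer subunit genes, were lowest in nuclei 2. Eif3f was at 7.25 and 1.2 CPM in nuclei, against 39.6 CPM in whole sperm, Eif3h at 13.4 and 1.35 CPM in nuclei, against 24.4 CPM in whole sperm, and Eif3m at 7.44 and 0.300 CPM in nuclei, against 8.08 CPM in whole sperm. The counts of Eif3h and Eif3m are uncertain, because 20.3% and 17.2% of their 50-base stretches also occur in transcripts of other genes. Eif3e was at 16.2 and 13.8 CPM in nuclei, against 36.6 CPM in whole sperm, with closely matched nuclei libraries.

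Eif3a, which encodes the largest eIF3 subunit, had the highest mean CPM of the eIF3 genes. It was at 175 and 165 CPM in nuclei, against 124 CPM in whole sperm (log2 0.45 ± 0.78 SE, edgeR adjusted p = 0.975), but the sign turned to -0.98 with spike-in scaling and to -0.091 with limma on log2(RPKM + 0.1). Eif3b, a subunit gene outside the octamer, lay above whole sperm in both nuclei libraries at 26.0 and 21.4 CPM in nuclei, against 7.39 CPM in whole sperm (log2 1.68 ± 2.00 SE, edgeR adjusted p = 0.909). Eif3i and Eif3d, also outside the octamer, lay below: Eif3i was at 10.3 and 8.54 CPM in nuclei, against 46.5 CPM in whole sperm, and Eif3d at 14.7 and 7.95 CPM in nuclei, against 35.2 CPM in whole sperm. Of the 4968 exon bases of Eif3d, 2151 overlap exons of Gm17638 on the opposite strand. Eif3g had 19.8 and 9.89 CPM in nuclei, against 15.4 CPM in whole sperm. Eif3j2 stood at 68.5 and 30.4 CPM in nuclei, against 88.1 CPM in whole sperm (log2 -0.83 ± 0.91 SE, edgeR adjusted p = 0.909), but its count cannot be told from that of its copy Eif3j1, since 91.8% of its 50-base stretches occur in transcripts of other genes.

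Eif3k and Eif3l, whose proteins bind each other, were the eIF3 genes with a higher CPM in nuclei 2 than in nuclei 1. Eif3k was at 36.1 and 73.5 CPM in nuclei, against 55.8 CPM in whole sperm (log2 -0.03 ± 0.96 SE, edgeR adjusted p = 1.00), a difference so near 0 that its sign turned with DESeq2 size factors. Eif3l was at 13.4 and 37.6 CPM in nuclei, against 21.5 CPM in whole sperm. For both genes whole sperm lay between the nuclei libraries.

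**Figure D3:**
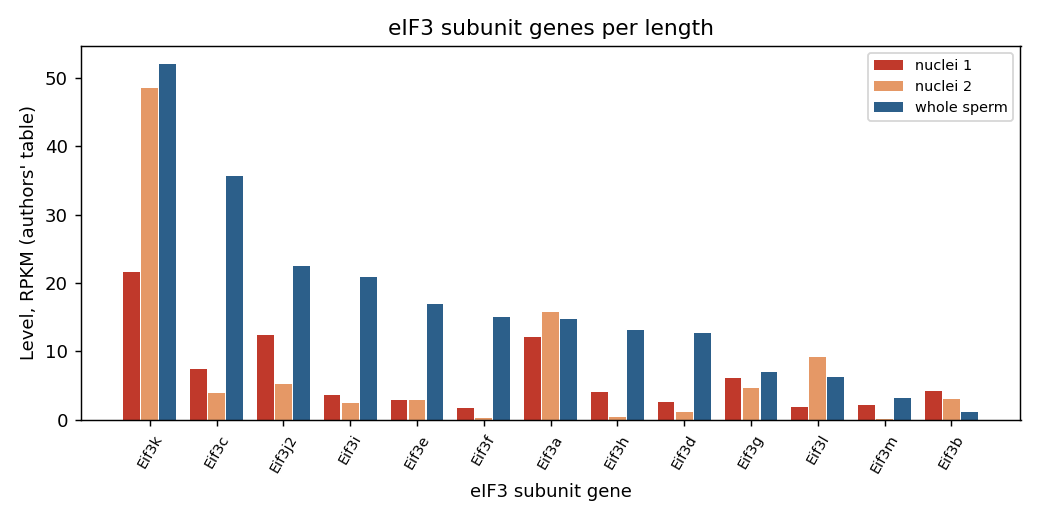
Level per length of the 13 eIF3 subunit genes in RPKM from the authors' table, 1 bar per library (nuclei 1, nuclei 2, whole sperm), sorted by whole sperm. Eif3k stands highest in every library, at 21.6, 48.4 and 52.0 RPKM, and Eif3b is the one gene with its lowest bar in whole sperm.

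Per length the eIF3 subunits, whose proteins occur in 1 complex, were far from equal. Over 12 subunit genes without Eif3j2, the median was 3.85 RPKM in nuclei 1, 3.0 RPKM in nuclei 2 and 13.9 RPKM in whole sperm. Eif3k was highest in every library, at 21.6 and 48.4 RPKM in nuclei, against 52.0 RPKM in whole sperm. The lowest gene differed by library: Eif3f at 1.77 RPKM in nuclei 1, Eif3m at 0.168 RPKM in nuclei 2 and Eif3b at 1.16 RPKM in whole sperm. On log2(RPKM + 0.1) the subunits spread with an SD of 1.09 for nuclei 1, 2.23 for nuclei 2 and 1.46 for whole sperm, so the subunit levels were most uneven in nuclei 2.

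Of the late-acting factors, Eif5, which triggers GTP hydrolysis by eIF2, was at 84.9 and 81.0 CPM in nuclei, against 92.0 CPM in whole sperm (log2 -0.15 ± 0.85 SE, edgeR adjusted p = 1.00). Of the Eif5 exon bases, 127 overlap the small nucleolar RNA gene Snora28 on the same strand. Eif5a, whose product carries hypusine and helps ribosomes past difficult peptide bonds, was at 70.0 and 47.4 CPM in nuclei, against 76.9 CPM in whole sperm (log2 -0.39 ± 0.91 SE, edgeR adjusted p = 0.993). Eif5b, the GTPase of subunit joining, was at 29.4 and 48.4 CPM in nuclei, against 36.0 CPM in whole sperm, and 1643 of its exon bases overlap exons of Rev1 on the opposite strand. Eif5a2, the second eIF5A gene, had 0 and 12 counts in nuclei, against 1 in whole sperm and was not tested.

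Eif6, which keeps the large ribosomal subunit from joining too early and also acts in its assembly in the nucleolus, had the highest fitted log2 fold change of all tested members. It was at 11.8 and 33.4 CPM in nuclei, against 3.35 CPM in whole sperm (log2 2.75 ± 2.31 SE, edgeR adjusted p = 0.909), and at 1.8 and 9.74 RPKM in nuclei, against 1.10 RPKM in whole sperm. Nuclei 2 lay far above whole sperm in both units, while nuclei 1 lay above it by a smaller margin. Set against whole sperm alone, nuclei 1 gave 1.68 and nuclei 2 gave 3.14 on log2(CPM + 0.5).

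The Argonaute genes take no part in initiation; their proteins bind small RNAs and silence mRNAs. Eif2c2, now called Ago2, encodes the Argonaute that can cut its target and was the 1 member higher with p under 0.05 before adjustment. It was at 56.5 and 84.4 CPM in nuclei, against 15.7 CPM in whole sperm (log2 2.16 ± 1.09 SE, edgeR unadjusted p = 0.0479, adjusted p = 0.844), and at 1.95 and 4.58 RPKM in nuclei, against 0.756 RPKM in whole sperm. Eif2c4, or Ago4, was the reverse, with 1 and 0 counts in nuclei, against 193 in whole sperm. Its whole-sperm level was 265 times that of nuclei, with an exact 95% interval of 47.1 to 10540 that covers counting error only (edgeR unadjusted p = 0.0582, adjusted p = 0.891). Eif2c1, or Ago1, was at 38.0 and 22.9 CPM in nuclei, against 22.1 CPM in whole sperm. Eif2c3, or Ago3, was at 28.2 and 7.35 CPM in nuclei, against 17.1 CPM in whole sperm, with whole sperm between the nuclei libraries, and the fitted signs of Eif2c1 and Eif2c3 turned below 0 with spike-in scaling. Ago1, Ago3 and Ago4 lie side by side on chromosome 4, yet their counts did not share a pattern.

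**Figure D4:**
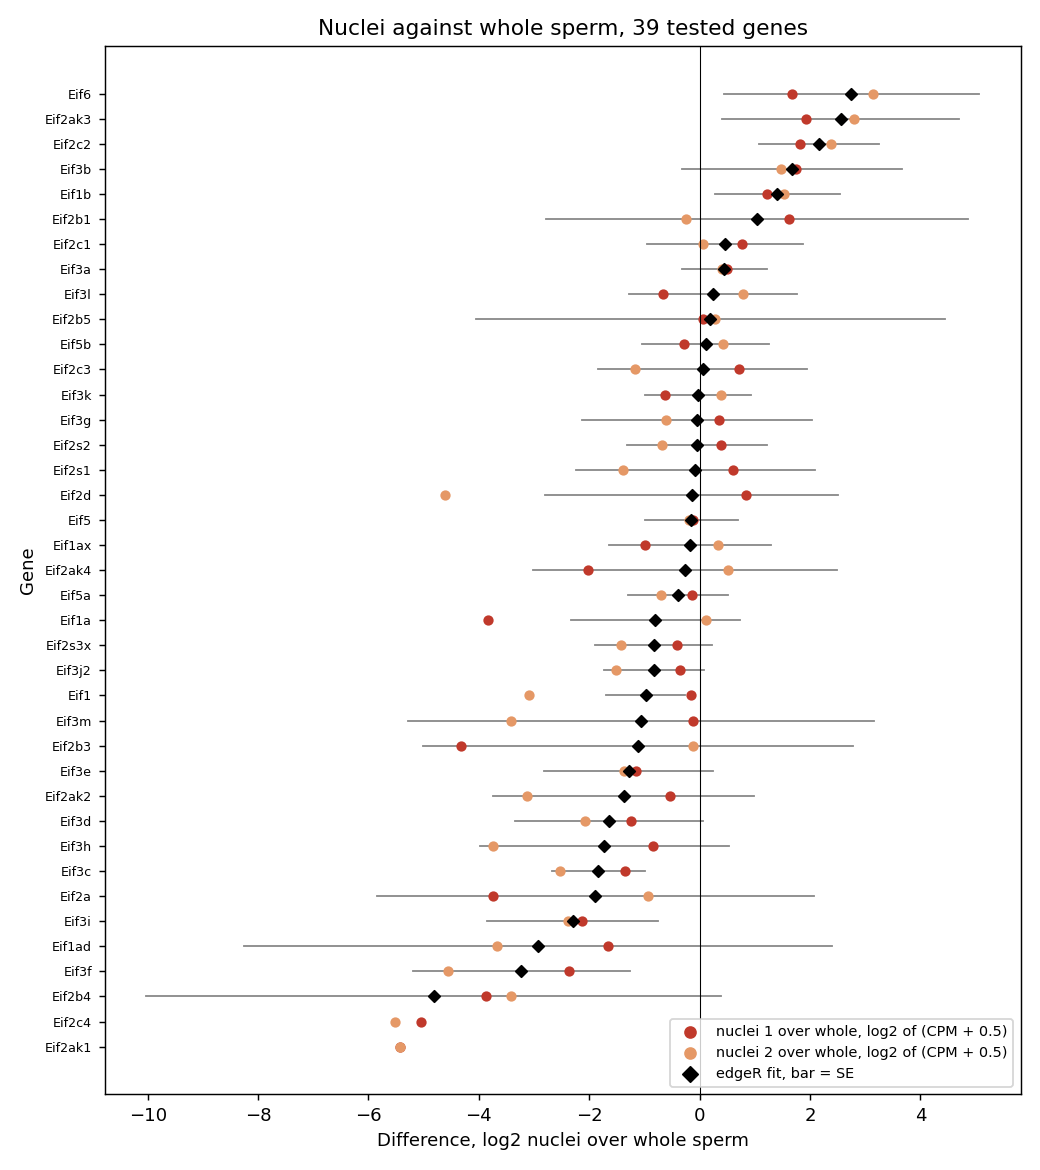
Difference in log2, nuclei over whole sperm, for the 39 tested genes: black diamonds with bars are the edgeR fit with its SE, and circles are each nuclei library against whole sperm on log2(CPM + 0.5). No fit is drawn for Eif2ak1 and Eif2c4, which have 0 and 1 counts over both nuclei libraries, and Eif6 has the highest fit at 2.75.

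How the members varied between the nuclei preparations sets the scale for these differences. Of 18 members with a mean of at least 20 CPM over the 3 libraries, 9 (50.0%) differed by more than 2-fold between nuclei 1 and nuclei 2, against 40.1% of 4218 annotated genes at that level. The median size of the log2 difference was 0.87 for nuclei 1 against nuclei 2, 0.64 for nuclei 1 against whole sperm and 0.74 for nuclei 2 against whole sperm. Over these 18 genes the median was thus largest between the nuclei preparations, a difference in medians that was not tested. For all genes at that level it was smallest between them, with medians of 0.79, 1.01 and 1.17. A count was present in every library for 34 of 41 members, and nuclei 1 lacked any count for 4 members, nuclei 2 for 4 and whole sperm for 1.

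**Figure D5:**
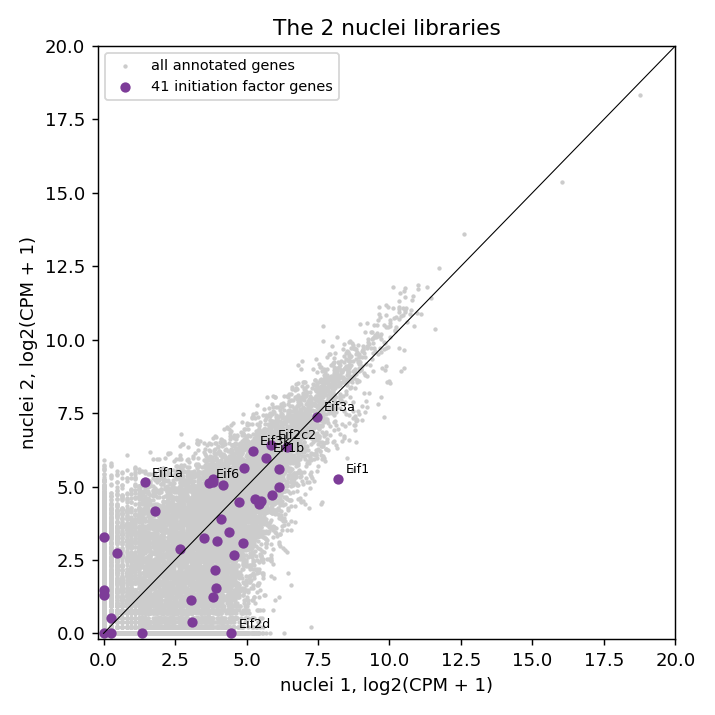
Level in nuclei 1 against nuclei 2, log2 of the TMM-normalised CPM plus 1, for all annotated genes (grey) and the 41 members (purple), with the line of equality. Eif3a lies near the line at 175 and 165 CPM, while Eif1 (294 and 37.6 CPM), Eif1a (1.72 and 34.2 CPM) and Eif2d (21.2 and 0 CPM) lie far from it.

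Many translation factor mRNAs begin with a 5′ terminal oligopyrimidine tract, a C followed by further pyrimidines, through which growth signals control their translation. The RefSeq start table held 33 of the 41 members. A tract of at least 5 bases, read on the gene's own strand and starting at most 2 bases from an annotated start, was found for 8 of the 33 (24.2%), and for 10.6% of the 27025 genes in the table. The longest under this rule, 13 and 12 bases, belong to Eif3f and Eif2s3x. They are shown in capitals within the 20 bases before and the 50 bases from the annotated start on. In both genes further pyrimidines stand directly before the capitals, which the rule did not count, so the whole pyrimidine run is longer. In GRCm38.p6, Eif3f is at chr7:108934395-108934464 on the plus strand and Eif2s3x at chrX:94212602-94212671 on the minus strand.
Eif3f: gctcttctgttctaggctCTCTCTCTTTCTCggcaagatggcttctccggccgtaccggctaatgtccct
Eif2s3x: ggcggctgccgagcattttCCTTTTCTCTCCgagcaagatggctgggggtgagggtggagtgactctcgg
Both genes had both nuclei libraries below whole sperm, as had 4 of the 8 in all and 41.2% of annotated genes tested. The other genes with a tract were Eif1ad, Eif2ak4, Eif2b5, Eif3b, Eif3l and Eif2c4, and the fitted log2 fold change was below 0 for 5 of the 8 and above 0 for 3, against 50.8% and 49.2% of annotated genes.

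Other genes of the pathway were read from lists of symbols. No gene of these lists passed the edgeR test in either direction. In the eIF4 list, the cap-binding factors and their partners, 8 of 14 tested genes lay above 0 and 6 below (median log2 0.62). Its most abundant gene was Eif4g1, the scaffold of the cap complex, at 6312 and 12391 CPM in nuclei, against 3168 CPM in whole sperm. In the elongation and termination list, 4 of 13 lay above 0 and 9 below (median -0.74), led by Eef1a1 at 859 and 519 CPM in nuclei, against 2174 CPM in whole sperm. Of 11 tested genes of the integrated stress response, the programme that the eIF2 kinases start, 4 lay above 0 and 7 below (median -1.10), with Asns, an asparagine synthetase gene, highest at 132 and 141 CPM in nuclei, against 147 CPM in whole sperm. Of 11 genes of scanning and reinitiation, 3 lay above 0 and 8 below (median -0.69), with Abcf1, whose product binds eIF2 and ribosomes, highest at 455 and 727 CPM in nuclei, against 206 CPM in whole sperm. Beside these, 49.2% of all annotated genes tested lay above 0 and 50.8% below.

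Scaling to the 23 ERCC spike-ins listed for every library, synthetic RNAs added to each extract, changed the calls. It moved the median log2 fold change of all rows by -1.43, to -1.16, and 3.26% of all rows were then lower and 0.0239% higher at an adjusted p under 0.05 (12.4% and 0.311% before adjustment). Of the 39 members, 4 (10.3%) were lower and 0 higher (edgeR with spike-in scaling). They were Eif1 (log2 -2.40, or -1.23 relative to the median of all rows, adjusted p = 0.0195), Eif3c (-3.26, or -2.10 relative to it, adjusted p = 0.00367), Eif2ak1 (adjusted p = 0.0234) and Eif2c4 (adjusted p = 0.0418). No source used here gives the amount of spike-in per library, and the scaling assumes that it was equal. Over all spike-ins, counts were 589074 and 768443 in nuclei, against 2570688 in whole sperm, which had the most relative to depth. These totals run opposite to the 23 shared spike-ins. Scaling to them would raise the fold changes of nuclei over whole sperm, not lower them. It was not run, so the direction of the shift and the 4 calls hold for the 23 shared spike-ins alone.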

How the data were processed

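RNA of 3 sperm preparations was sequenced, and the labels list 2 runs of each. The authors deposited a table of whole-number counts per gene and assembled region and a table of RPKM values, with 1 column per preparation. Per the submitters' processing notes, HTSeq, DESeq2, bedtools, TopHat2 2.0.12 with SAMtools 0.1.19, CASAVA 1.8.2 and Cufflinks 2.1.1 were used on build mm10, with no role, order or strand setting named. In whole sperm, 36.4% of the count file's total named no gene and was left out.

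Counts were tested with edgeR 4.0.16 (R 4.3.3): TMM scaling, filterByExpr, quasi-likelihood test of nuclei against whole sperm, Benjamini-Hochberg over 16720 rows. With 2 nuclei libraries and 1 whole-sperm library the fit had 1 residual degree of freedom, so whole sperm is assumed to vary like the nuclei. The prior degrees of freedom came out infinite, so the spread was pooled over all rows (common biological coefficient of variation 1.30). A gene's own agreement between libraries thus hardly entered its SE. Each edgeR SE was worked back from the test, as the size of the log2 fold change divided by the square root of the quasi-likelihood F statistic. DESeq2 1.42.0 and limma 3.58.1 on log2(RPKM + 0.1) were alternatives. Steps were tested on simulated data. Members and lists were chosen with earlier results of these data known. By rule, full values were given for members passing 0.05, with a mean of at least 50 CPM over the libraries or with the highest mean of their role, and, outside the members, for Prm2, Eif4g1 and list genes that passed 0.05 or led their list; Eif1b, Eif6, Eif3b, Eif2ak1, Eif2c4, Eif3f, Eif3i and the remaining members were described after their values were seen. Windows at gene starts and their sequences are from RefSeq (GRCm38.p6).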

Additional observations from a re-analysis of the deposited data

Results flagged for a closer look

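The assembled region beside Eif1b, TCONS_00041359, is listed outside the annotated genes and was taken up because it carried signal in both nuclei libraries above whole sperm. Its mean level was 172 ± 50.3 CPM in nuclei (SD, n = 2 preparations) and 65.0 CPM in whole sperm, and the edgeR test did not pass (unadjusted p = 0.0890, adjusted p = 0.909). With spike-in scaling its log2 difference was -0.03.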

How the results depend on the processing

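The count of 0 members called was 4, all lower in nuclei, with spike-in scaling. This scaling used only the spike-ins listed for every library. Totals over all spike-ins ran the opposite way and would raise the fold changes, but scaling to them was not run. Every spike-in value in this paragraph, signs included, thus holds for the shared spike-ins alone. The members' median log2 difference of -0.26 was -1.71 with spike-in scaling. With limma on RPKM it was -1.37 and -0.86 with a pseudocount of 0.1 and 1, and -1.42 with a mean of at least 1 RPKM. Over all rows, assembled regions included, the median was 0.27, and -1.16 with spike-in scaling. Over annotated genes alone it was -0.045 in the main fit. Limma, which had annotated genes alone, gave -0.67, -0.22 and -0.99 in the same order of settings. From a single nuclei library the members' median ranged from -0.69 to -0.36. A fit with 1 nuclei library has no residual degrees of freedom, so counts of calls have no such value. Without Rn45s and Lars2 the members took 0.248% and 0.163% of counts in nuclei and 0.323% in whole sperm. Among the 19 members recomputed singly, signs turned for Eif3k (0.018 with DESeq2 size factors and with DESeq2, 0.056 without the 10 most abundant features), for Eif2b1 (-0.38), Eif3a (-0.98) and Eif1b (-0.026) with spike-in scaling, and for Eif3a with limma (-0.091 and, with a pseudocount of 1, -0.085); the cause was not tested. Over all 39 tested members, signs turned for 8 with spike-in scaling (also Eif2c1, Eif2c3, Eif2b5, Eif3l and Eif5b), for 4 with limma at either pseudocount (also Eif2c3, Eif3l and Eif5b), for 3 of 34 with a mean of at least 1 RPKM (Eif3a, Eif3l and Eif5b), for 2 with DESeq2 or its size factors (also Eif3g), for 4 without the 10 most abundant features (also Eif2s1, Eif2s2 and Eif3g) and for 1 with library size alone (Eif2c3). No paired analysis was possible because whole sperm has 1 preparation and the labels do not link it to either nuclei preparation. Depth limits genes under 3 counts, or 0.572, 0.450 and 0.346 CPM in nuclei 1, nuclei 2 and whole sperm.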
